A study of Mus musculus with 44 samples.

Results

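The insulin-like growth factor (IGF) axis was followed here through 10 genes: the ligands Igf1 and Igf2, the receptors Igf1r and Igf2r, and the secreted binding proteins Igfbp2, Igfbp3, Igfbp4, Igfbp5, Igfbp6 and Igfbp7. The members were chosen by symbol, as the ligands, receptors and binding proteins named above, with earlier results of these data known. All 10 were on the array, with 23 probe sets between them, out of 12394 genes tested. In these hearts Igfbp7 and Igf1r were higher in PKCe transgenic than in nontransgenic FVB/N mice under either treatment. Igf1 was lower in mice given the antibody FG-3149 than in mice given IgG in both lines, and Igfbp7 was lower with the antibody in the PKCe line. Each of these antibody calls was lost under some of the other settings given below. Not every probe set of Igfbp7 and Igf1r was called between the lines.

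IGF1 and IGF2 are secreted peptides that signal through the tyrosine kinase receptor encoded by Igf1r, which feeds the PI3K, AKT and mTOR cascade and supports growth and survival of cardiomyocytes. The receptor encoded by Igf2r has no kinase: it takes up IGF2 for breakdown and sorts lysosomal enzymes that carry mannose 6-phosphate. The binding proteins carry IGFs in blood and tissue, lengthen their life and hold them away from the receptor until proteases release them. Igfbp7 encodes a relative with low affinity for IGFs. In adult animals the liver makes most circulating IGF1 under growth hormone, while in the heart non-myocytes such as macrophages and fibroblasts are a local source.

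Left ventricular tissue of 4 groups was used. The PKCe FG-3149 group (n = 12, 6 females and 6 males) and the PKCe IgG group (n = 10, 5 females and 5 males) carried a constitutively active rabbit PKCε transgene that the mouse Myh6 promoter drives in cardiomyocytes, on an FVB/N background. The FVB FG-3149 group (n = 12, 6 females and 6 males) and the FVB IgG group (n = 10, 7 females and 3 males) were nontransgenic FVB/N mice bought from a breeder. FG-3149 binds CTGF (connective tissue growth factor), which Ccn2 encodes, and IgG was nonimmune mouse immunoglobulin. Both were injected intraperitoneally at 30 mg/kg. Mice had 2 such injections in each week, from 3 months of age until tissue was taken at 6 months. The mouse line is a transgenic model of dilated cardiomyopathy, so its cardiomyocytes carry an active kinase from a foreign gene throughout.

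Each value is the log2 of a deposited ratio of 1 probe set to its own median over the 44 arrays, 1 array per mouse, so 0 is the middle array of that gene and 1 is a doubling. Levels of different genes cannot be set against each other on this scale, nor does it show whether a gene was detected. A difference between groups was called when its adjusted p, from limma with Benjamini-Hochberg adjustment over all 12394 genes, was under 0.05. All tests were two-sided, and p-values measure the spread between mice measured on 1 array each. Mouse numbers in the labels ran from 38 to 191 in PKCe FG-3149, 192 to 362 in PKCe IgG, 338 to 349 in FVB FG-3149 and 420 to 443 in FVB IgG mice. Within each comparison of PKCe or of FVB mice the groups bear separate runs of numbers, so whatever went with the number cannot be told apart from the treatment. Under either treatment the lines bear separate runs too, and FVB mice were bought, so the same holds for the line. In PKCe IgG mice the males bore 192 to 196 and the females 322 to 362, so sex there is bound to the number as well.

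Several arrays stood apart from the rest. The mean of the atrial genes Sln, Myl7 and Myl4 was above 4 on 10 arrays, of which 2 were PKCe FG-3149, 2 PKCe IgG, 1 FVB FG-3149 and 5 FVB IgG arrays. The lung genes Sftpc and Scgb1a1 were both above 3 on PKCe IgG replicates 9 and 10. The female label of FVB FG-3149 replicate 11 went against its Y-linked gene Uty, which stood at 3.63. On the other 23 arrays labelled female Uty reached 0.023 at most, and on male arrays it was 3.78 or more. The mean of 9 fibroblast markers ran from -0.067 to 1.11 on PKCe FG-3149, 0.20 to 1.52 on PKCe IgG, -1.11 to -0.49 on FVB FG-3149 and -0.90 to 0.22 on FVB IgG arrays. In bulk tissue, fewer cells of a type and less RNA per cell cannot be told apart.

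Between PKCe IgG and FVB IgG mice, 5 members were higher and 0 lower, where 20.7% of all genes were called higher and 21.5% lower. The median difference of the 10 members was 0.35, against -0.046 over all genes. Between PKCe FG-3149 and FVB FG-3149 mice, 8 members were higher and 0 lower, where 21.5% of all genes were called higher and 25.5% lower, and the members' median was 0.43 against -0.048. Between PKCe FG-3149 and PKCe IgG mice, 0 members were higher and 2 lower (Igf1 and Igfbp7), with 5.08% and 3.74% of all genes called in those directions, and the members' median was -0.095 against 0.016. Between FVB FG-3149 and FVB IgG mice, 1 member was higher and 4 lower, with 4.43% and 4.57% of all genes, and the members' median was -0.12 against 0.025. These comparisons share groups: each of the 4 groups stands in more than 1 of them.

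**Figure D1:**
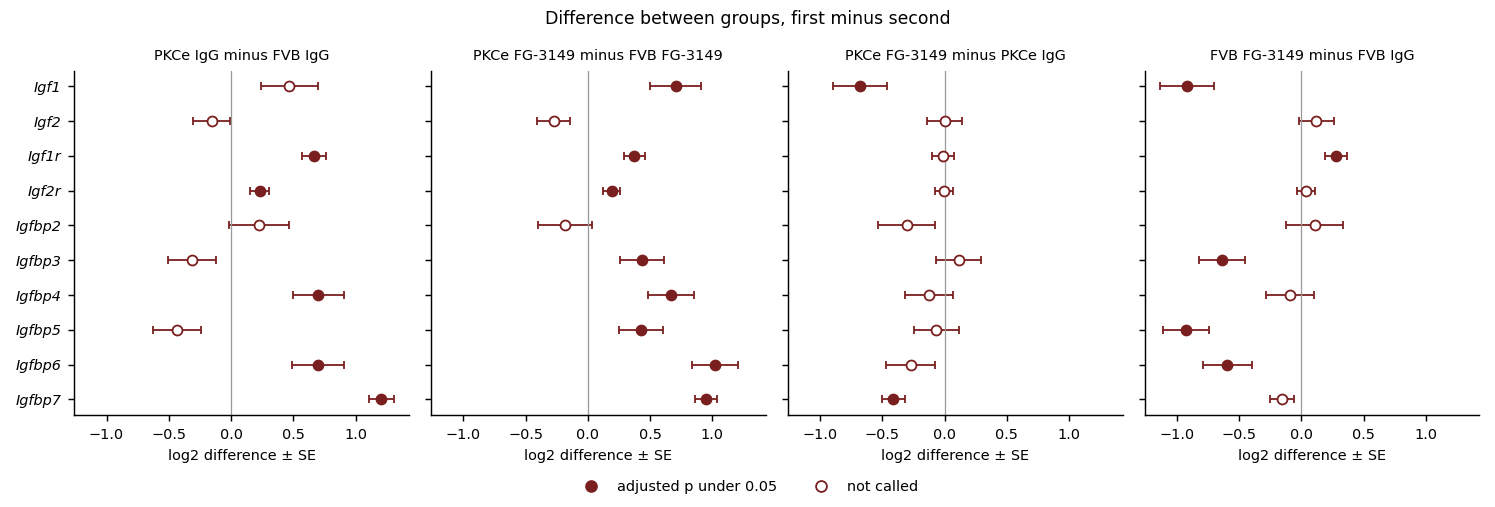
Log2 difference (horizontal axis, first group minus second) of the 10 IGF axis members in the 4 comparisons of groups, with bars of 1 SE and filled points where the adjusted p was under 0.05. Igfbp7 lies farthest to the right between PKCe IgG and FVB IgG mice (1.21), and Igfbp5 and Igf1 lie farthest to the left between FVB FG-3149 and FVB IgG mice (-0.93 and -0.92).

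The start regions of 5 members are shown because the results turn on these genes: Igfbp7 and Igf1r had the lowest p-values between the lines under IgG, Igf1 was called lower with the antibody in both lines, and Igfbp4 and Igfbp6 varied most alike from array to array. Each is the window from 250 bases before to 50 after the annotated start, taken from RefSeq (GRCm38.p6) and read 5′ to 3′ on the gene's strand. Capitals mark matches to short promoter motifs searched on both strands. These are the GC box with the letters GGGCGG, the box spelled TATAAA that is named after its start, and the box known by its letters CCAAT.
Igfbp7, chr5:77407996-77408295, minus strand: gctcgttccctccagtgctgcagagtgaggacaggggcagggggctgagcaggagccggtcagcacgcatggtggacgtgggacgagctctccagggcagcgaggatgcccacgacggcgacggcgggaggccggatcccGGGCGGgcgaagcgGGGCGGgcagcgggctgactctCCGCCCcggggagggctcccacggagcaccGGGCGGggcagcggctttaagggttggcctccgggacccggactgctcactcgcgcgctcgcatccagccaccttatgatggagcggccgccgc
Igf1r, chr7:67952007-67952306, plus strand: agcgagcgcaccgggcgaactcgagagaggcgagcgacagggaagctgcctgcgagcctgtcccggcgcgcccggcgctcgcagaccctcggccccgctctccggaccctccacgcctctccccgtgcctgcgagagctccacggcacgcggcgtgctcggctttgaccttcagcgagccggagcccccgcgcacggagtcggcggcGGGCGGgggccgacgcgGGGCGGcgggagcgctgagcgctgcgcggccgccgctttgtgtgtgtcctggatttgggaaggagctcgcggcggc
Igf1, chr10:87860861-87861160, plus strand: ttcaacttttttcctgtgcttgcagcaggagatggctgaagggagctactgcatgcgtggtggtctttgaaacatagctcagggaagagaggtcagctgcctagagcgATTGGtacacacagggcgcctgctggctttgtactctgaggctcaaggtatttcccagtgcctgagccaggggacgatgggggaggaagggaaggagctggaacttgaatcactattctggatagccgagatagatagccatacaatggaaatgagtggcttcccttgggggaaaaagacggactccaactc
Igfbp4, chr11:99040994-99041293, plus strand: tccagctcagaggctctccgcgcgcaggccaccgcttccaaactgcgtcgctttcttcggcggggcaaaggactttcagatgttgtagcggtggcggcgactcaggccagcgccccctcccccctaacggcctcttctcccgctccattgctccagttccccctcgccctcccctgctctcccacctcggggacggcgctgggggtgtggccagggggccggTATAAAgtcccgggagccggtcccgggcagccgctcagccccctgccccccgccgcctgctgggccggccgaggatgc
Igfbp6, chr15:102143936-102144235, plus strand: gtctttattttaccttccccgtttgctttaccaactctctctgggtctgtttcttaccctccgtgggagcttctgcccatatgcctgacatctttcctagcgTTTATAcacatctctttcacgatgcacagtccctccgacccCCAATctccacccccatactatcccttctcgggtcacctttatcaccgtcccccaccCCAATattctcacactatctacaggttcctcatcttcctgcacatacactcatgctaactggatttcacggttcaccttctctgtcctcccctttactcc

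The windows of Igfbp7 and Igf1r were rich in G and C (73.3% and 76.0%) and held 4 and 2 GC boxes, with no TATA or CCAAT box. Igfbp4 (71.3% G and C) held 1 TATA box, Igfbp6 (49.7%) held 1 TATA box and 2 CCAAT boxes, and Igf1 (52.3%) held 1 CCAAT box. All 10 members matched a RefSeq entry, with 14 windows in all, of which 6 held a GC box, 2 a TATA box and 3 a CCAAT box. Of 32851 mouse start windows of the same length, 35.7% held a GC box, 13.6% a TATA box and 37.4% a CCAAT box. The matches describe the letters of these windows and no factor's binding.

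Igf1 encodes the ligand of the IGF1 receptor. Its log2 ratio ran from -0.28 to 0.50 with a median of -0.034 in PKCe FG-3149 mice, and from 0.10 to 1.73 with a median of 0.76 in PKCe IgG mice. It ran from -1.73 to 0.38 with a median of -0.58 in FVB FG-3149 mice, and from -0.78 to 1.42 with a median of 0.28 in FVB IgG mice. With the antibody the PKCe arrays were low and close together (mean 0.041 ± 0.26, SD, n = 12, against 0.72 ± 0.48, n = 10, with IgG), and 8 of 12 lay below every PKCe IgG array. In the FVB line the groups overlapped, and 11 of 12 antibody arrays lay below the FVB IgG median. 

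Igf1 fell with the antibody in PKCe mice by 0.68 ± 0.22 (SE) on the log2 scale, a 1.61-fold lower ratio (adjusted p = 0.0385 by limma). In FVB mice it fell by 0.92 ± 0.22, 1.89-fold (adjusted p = 0.00524). The difference between these effects was 0.24 ± 0.31 (95% confidence interval -0.38 to 0.86, adjusted p = 0.80 by limma), so it was not called. The other Igf1 probe sets differed in the same direction, by -0.58 and -0.53 in PKCe mice, of which the first was called, and by -0.50 and -0.43 in FVB mice, neither called.

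Between the lines Igf1 was called higher under the antibody, by 0.70 ± 0.21 (1.63-fold, adjusted p = 0.0053 by limma), with all 12 PKCe FG-3149 arrays above the FVB FG-3149 median. Among females that difference was 1.14 ± 0.26 (adjusted p = 0.002 by limma). Among males it was 0.27 ± 0.24 (adjusted p = 0.46) and was not called. Whether the sexes differed in it was not tested. Under IgG the difference was 0.47 ± 0.23 (95% interval 0.01 to 0.93, adjusted p = 0.0922), which was not called. One of the other Igf1 probe sets was called higher there, by 0.59 ± 0.20 (adjusted p = 0.0167 over all probe sets), and the last differed by 0.26 without a call. With the atrial level as a covariate, chosen after the data were seen, the difference under IgG was 0.63 (adjusted p = 0.0203 by limma) and was called. Without the 2 arrays high in lung genes it was 0.28 (adjusted p = 0.348) and was not called. With the 3' minus 5' difference of the Gapdh control probe sets as a covariate it was 0.34 (adjusted p = 0.367), not called either. By sex, among females the line difference under IgG was 0.91 ± 0.26 (adjusted p = 0.00919) and among males -0.084 ± 0.31 (adjusted p = 0.903). The test of that difference gave 0.996 at an unadjusted p of 0.0230 and was not called over all genes. In order of group means Igf1 was highest in PKCe IgG, then FVB IgG, PKCe FG-3149 and FVB FG-3149 mice.

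The Igf1 call in PKCe mice was lost in 13 of the 44 runs that left out 1 array (PKCe FG-3149 replicate 2, 5, 6, 7, 8, 10, 11 or 12, or PKCe IgG replicate 1, 6, 7, 9 or 10), with adjusted p up to 0.106. Without the 2 arrays high in lung genes the difference was -0.51 ± 0.22 (adjusted p = 0.205 by limma), and without the 10 arrays high in atrial genes -0.70 ± 0.25 (adjusted p = 0.109). The Igf1 call in FVB mice held in all 44 such runs, with adjusted p from 0.00155 to 0.0186, but not without those 10 arrays (-0.80 ± 0.29, adjusted p = 0.185). Under IgG, leaving out FVB IgG replicate 2 or 8 brought the line difference to a call (adjusted p as low as 0.025).

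Igf2 encodes the second ligand, which is abundant before birth and expressed from the paternal allele. Its log2 ratio ran from -0.47 to 0.31 in PKCe FG-3149 mice (median -0.13), -0.49 to 0.33 in PKCe IgG mice (median -0.069), -0.33 to 0.83 in FVB FG-3149 mice (median 0.13) and -0.46 to 1.21 in FVB IgG mice (median -0.042). All 4 groups overlapped and no comparison of groups was called for this probe set. The difference between PKCe FG-3149 and FVB FG-3149 mice was -0.27 ± 0.13 (95% interval -0.54 to -0.01, adjusted p = 0.0852 by limma), and leaving out FVB FG-3149 replicate 12 or FVB IgG replicate 2 brought it to a call. Without the 10 arrays high in atrial genes it was -0.30 (adjusted p = 0.0243), with the atrial level as a covariate -0.32 (adjusted p = 0.0322) and with probe sets averaged -0.20 (adjusted p = 0.0168), each called. It was not called without the 2 arrays high in lung genes (adjusted p = 0.0806) or within either sex alone. The other Igf2 probe set, which varied less, was called lower in PKCe mice under both treatments, by 0.13 each time (adjusted p = 0.00657 under the antibody and 0.00983 under IgG, over all probe sets).

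**Figure D2:**
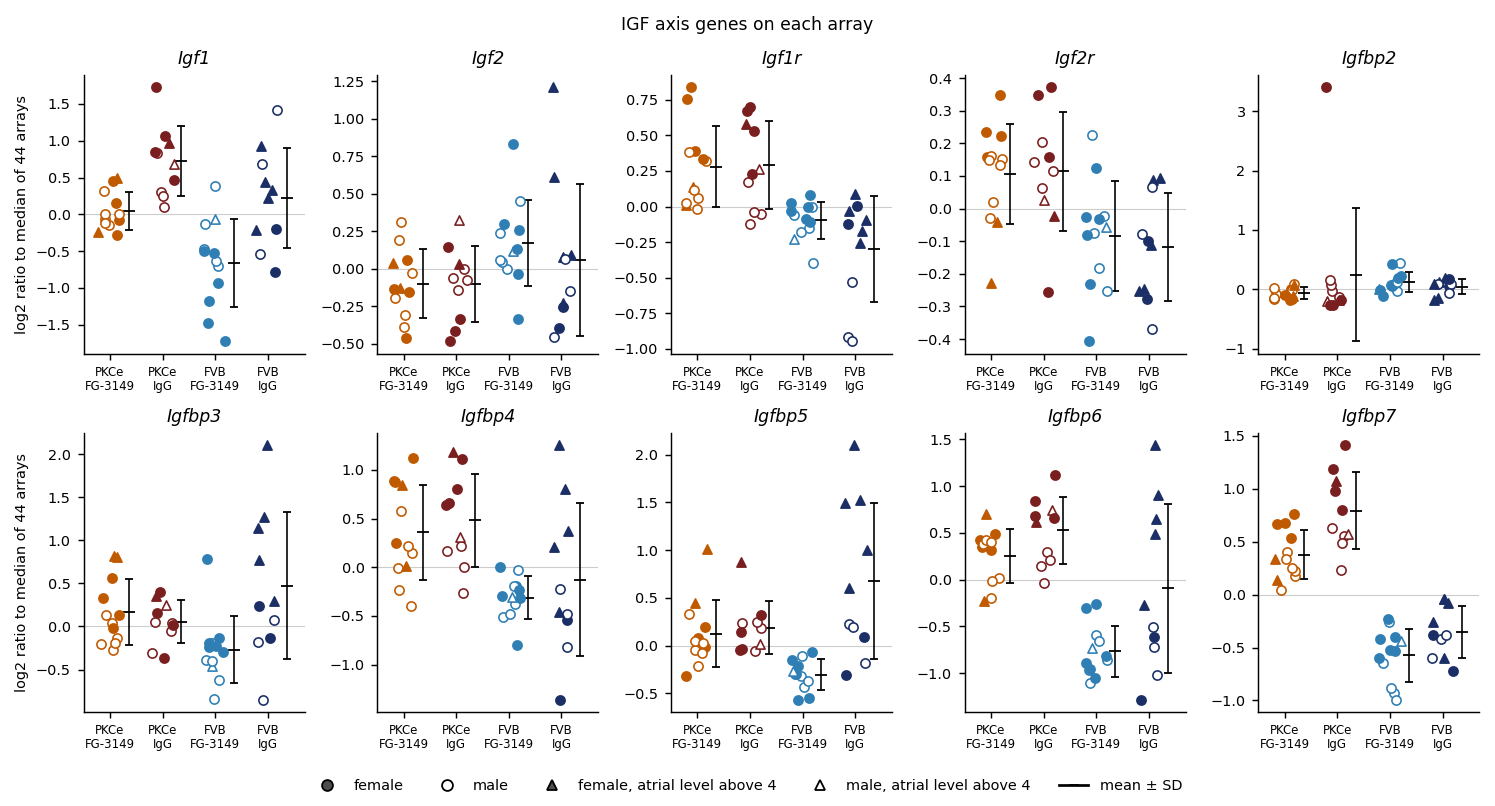
Log2 ratio to the median of 44 arrays (vertical axis) of the 10 IGF axis members in each of the 4 groups, 1 symbol per array (filled female, open male, triangles for the 10 arrays with a mean atrial level above 4) with group means ± SD. Igfbp7 of every PKCe array lies above every array of the FVB group given the same treatment. Among all genes 2.66% show this under IgG and 2.69% under the antibody. A single PKCe IgG array stands at 3.41 for Igfbp2.

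Igf1r encodes the signalling receptor. Its log2 ratio ran from -0.020 to 0.84 in PKCe FG-3149 mice (median 0.23) and from -0.12 to 0.70 in PKCe IgG mice (median 0.25). It ran from -0.40 to 0.080 in FVB FG-3149 mice (median -0.075) and from -0.95 to 0.086 in FVB IgG mice (median -0.15). Both PKCe groups were high and overlapped throughout, and the 3 lowest FVB IgG arrays (-0.95, -0.92 and -0.53) were its 3 males. Igf1r was higher in PKCe than in FVB mice under IgG by 0.67 ± 0.093 (1.59-fold, adjusted p = 1.45e-07 by limma), with 10 of 10 arrays above the FVB IgG median, and under the antibody by 0.37 ± 0.084 (1.30-fold, adjusted p = 0.00037), with 12 of 12 above the FVB FG-3149 median.

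With the antibody Igf1r was higher in FVB mice by 0.28 ± 0.089 (1.21-fold, adjusted p = 0.0395 by limma), with 8 of 12 arrays above the FVB IgG median, while in PKCe mice the difference was -0.013 ± 0.088 (95% interval -0.19 to 0.16). The antibody effects differed between the lines by -0.29 ± 0.12 (adjusted p = 0.216), which was not called. Among FVB males the antibody difference was 0.63 ± 0.11 (adjusted p = 0.0175) and among FVB females 0.064 ± 0.11 (adjusted p = 0.762), and the FVB IgG group held 3 males. The FVB call was lost without any of FVB FG-3149 replicates 1, 2 and 3 or FVB IgG replicates 1, 3, 7 and 8 (adjusted p up to 0.107), and without the 10 arrays high in atrial genes (0.36 ± 0.10, adjusted p = 0.0687) or a term for sex (0.20, adjusted p = 0.294). The other Igf1r probe set was not called in any comparison of groups, with differences of 0.12, -0.070, -0.037 and 0.086 (PKCe FG-3149 minus PKCe IgG, PKCe IgG minus FVB IgG, FVB FG-3149 minus FVB IgG, and PKCe FG-3149 minus FVB FG-3149), so the Igf1r results rest on 1 of 2 probe sets.

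Igf2r, the receptor that clears IGF2, differed by less. Its log2 ratio ran from -0.23 to 0.35 in PKCe FG-3149 mice (median 0.15), -0.26 to 0.37 in PKCe IgG mice (median 0.13), -0.41 to 0.23 in FVB FG-3149 mice (median -0.065) and -0.37 to 0.094 in FVB IgG mice (median -0.11). The ranges overlapped, and 6 of the 10 PKCe IgG arrays lay above all FVB IgG arrays. Igf2r was higher in PKCe than in FVB mice by 0.23 ± 0.076 under IgG (1.17-fold, adjusted p = 0.0127 by limma) and by 0.19 ± 0.069 under the antibody (1.14-fold, adjusted p = 0.0214). The antibody differences were -0.0079 in PKCe mice (95% interval -0.15 to 0.14) and 0.033 in FVB mice (-0.11 to 0.18). The other Igf2r probe set was called under the antibody (0.18 ± 0.061) and not under IgG (-0.093 ± 0.067), where it pointed the other way. With the probe sets averaged the IgG difference was 0.069 (adjusted p = 0.36 by limma), and within either sex alone Igf2r was not called. The 3' minus 5' difference of the Gapdh control probe sets, a sign of RNA quality, averaged 0.037 on PKCe FG-3149, 0.30 on PKCe IgG, -0.13 on FVB FG-3149 and -0.035 on FVB IgG arrays. With it as a covariate the line difference of Igf2r was 0.19 ± 0.093 under IgG (adjusted p = 0.117) and 0.17 ± 0.074 under the antibody (adjusted p = 0.0572), and neither was called.

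Igfbp7, which encodes a low-affinity binding protein of vessels and stroma, separated the lines most clearly. Its log2 ratio ran from 0.039 to 0.77 in PKCe FG-3149 mice (median 0.34) and from 0.23 to 1.41 in PKCe IgG mice (median 0.71). It ran from -0.99 to -0.23 in FVB FG-3149 mice (median -0.53) and from -0.72 to -0.040 in FVB IgG mice (median -0.38). Every PKCe array was above 0 and every FVB array below it. Under IgG all 10 PKCe arrays lay above all FVB arrays, a separation that 2.66% of all genes showed, and under the antibody all 12 did, as for 2.69% of all genes.

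Igfbp7 was higher in PKCe than in FVB mice by 1.21 ± 0.099 under IgG (2.31-fold, adjusted p = 6.34e-13 by limma) and by 0.95 ± 0.090 under the antibody (1.93-fold, adjusted p = 2.56e-11). With the antibody it fell in PKCe mice by 0.41 ± 0.094, 1.33-fold (adjusted p = 0.00389), with 11 of 12 arrays below the PKCe IgG median. In FVB mice the antibody difference was -0.16 ± 0.095 (adjusted p = 0.347), and the difference between these effects was -0.26 ± 0.13 (adjusted p = 0.344), not called. In order of means Igfbp7 was highest in PKCe IgG, then PKCe FG-3149, FVB IgG and FVB FG-3149 mice, of which the last pair did not differ beyond its spread by this test.

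Of the other Igfbp7 probe sets, the more variable one was also called higher in PKCe mice, by 0.84 ± 0.11 under IgG and by 0.79 ± 0.097 under the antibody, and differed by -0.20 ± 0.10 with the antibody in PKCe mice (adjusted p = 0.245 over all probe sets). The last differed by 0.034 and -0.041 between the lines and was not called. The antibody call in PKCe mice held in all 44 runs without 1 array (adjusted p from 0.0012 to 0.0136), without the 2 arrays high in lung genes (-0.32 ± 0.094, adjusted p = 0.0443 by limma) and without the 10 high in atrial genes (-0.34 ± 0.099, adjusted p = 0.0449). With the Gapdh difference as a covariate the Igfbp7 difference was -0.31 ± 0.10 (adjusted p = 0.0831) and that of Igf1 -0.59 ± 0.25 (adjusted p = 0.198), so neither was called.

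Igfbp6 encodes a binding protein that prefers IGF2, and Igfbp4 one that the protease PAPP-A cleaves to release IGFs. The log2 ratio of Igfbp6 ran from -0.23 to 0.70 in PKCe FG-3149 mice (median 0.36), -0.036 to 1.12 in PKCe IgG mice (median 0.64), -1.11 to -0.26 in FVB FG-3149 mice (median -0.84) and -1.28 to 1.44 in FVB IgG mice (median -0.39). All 12 PKCe FG-3149 arrays lay above all FVB FG-3149 arrays, as for 2.69% of all genes. The FVB IgG arrays were spread widely and overlapped every other group. Igfbp6 was higher in PKCe than in FVB mice by 1.02 ± 0.19 under the antibody (2.03-fold, adjusted p = 2.24e-05 by limma) and by 0.70 ± 0.21 under IgG (1.62-fold, adjusted p = 0.00575). Among females the difference under IgG was 0.60 ± 0.32 (adjusted p = 0.138 by limma) and was not called. Among males it was 1.02 ± 0.17 (adjusted p = 0.000305) and was called.

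Igfbp4 ran from -0.40 to 1.12 in PKCe FG-3149 mice (median 0.24), -0.26 to 1.18 in PKCe IgG mice (median 0.47), -0.80 to 0.00 in FVB FG-3149 mice (median -0.30) and -1.36 to 1.25 in FVB IgG mice (median -0.35). Its FVB IgG arrays also spanned the range of both PKCe groups. Igfbp4 was higher in PKCe than in FVB mice by 0.67 ± 0.18 under the antibody (1.59-fold, adjusted p = 0.003 by limma) and by 0.70 ± 0.20 under IgG (1.63-fold, adjusted p = 0.0048). Its other 5 probe sets were all called higher under the antibody, by 0.46 to 0.64, and 4 of them under IgG, where their differences ran from 0.090 to 0.57. With the antibody Igfbp4 differed by -0.12 ± 0.19 in PKCe mice (95% interval -0.51 to 0.26) and by -0.090 ± 0.19 in FVB mice (-0.48 to 0.30), neither called, and Igfbp6 differed in PKCe mice by -0.27 ± 0.20 (adjusted p = 0.456), with 11 of 12 arrays below the PKCe IgG median.

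Fibroblast markers were higher in PKCe mice too. Of 9 markers (Dcn, Lum, Pdgfra, Col1a1, Col1a2, Tcf21, Pi16, Mfap5 and Postn) 9 were called higher in PKCe than in FVB mice under either treatment, with medians of 1.49 under the antibody and 1.38 under IgG, and no ratio shows whether a marker was at 0. With the antibody 4 of the 9 were lower in PKCe mice (Pi16 by 0.67, Postn by 1.01, Col1a2 by 0.63 and Mfap5 by 0.66) and 2 in FVB mice (Pi16 and Mfap5). Among all genes 3.74% and 4.57% were called lower there. Under the antibody the marker mean of every PKCe array lay above that of every FVB array, and under IgG the ranges barely overlapped. A fit with that mean can therefore hardly tell line from markers. With the marker mean as a covariate, a setting chosen after the data were seen, Igfbp7 was called higher in PKCe mice under IgG (0.59 ± 0.15, adjusted p = 0.00782 by limma) and not under the antibody (0.35, adjusted p = 0.119). Igf2r was not called under either (0.21 under IgG and 0.17 under the antibody). Igfbp4 was then called lower in PKCe mice (-0.95 under the antibody and -0.97 under IgG), and Igfbp6 stood at -0.40 and -0.77, neither called. Under IgG, Igf1 (-1.14) and Igfbp5 (-1.21) were also called lower with this covariate, and Igf1r (0.47, adjusted p = 0.073) was not called. The Igf1 and Igfbp7 differences with the antibody in PKCe mice were then -0.21 and -0.23 and not called. Some markers of other cell types differed between the lines too. The macrophage and adipocyte calls went in opposite directions. Of 8 macrophage markers 5 were higher in PKCe than in FVB mice under the antibody (median 0.32) and 1 under IgG, where 21.5% and 20.7% of all genes were called higher. Their mean ran from -0.33 to 0.40 on PKCe FG-3149, -0.18 to 0.87 on PKCe IgG, -0.57 to 0.033 on FVB FG-3149 and -0.39 to 0.64 on FVB IgG arrays. Of 6 adipocyte markers 5 were lower in PKCe than in FVB mice under IgG (median -1.22) and 0 differed by a call under the antibody, and under IgG their mean ran from -1.03 to 0.93 on PKCe and -0.87 to 3.26 on FVB arrays. Of 9 ventricular cardiomyocyte markers, 1 was higher and 5 lower in PKCe mice under the antibody, and 1 and 4 under IgG. Of 8 mural (vessel wall) markers, 2 were higher and 4 lower under the antibody, and 2 and 3 under IgG. Of 8 endothelial markers, 2 and 2 were called so under the antibody, and 1 and 0 under IgG. Among all genes 25.5% were called lower under the antibody and 21.5% under IgG. Whether RNA of these cells has a part in the results was not tested beyond these values.

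Igfbp5, which encodes a matrix-bound binding protein, and Igfbp3, which encodes the main IGF carrier of blood, were called in the FVB line. Igfbp5 ran from -0.31 to 1.01 in PKCe FG-3149 mice (median 0.036), -0.056 to 0.88 in PKCe IgG mice (median 0.16), -0.56 to -0.065 in FVB FG-3149 mice (median -0.30) and -0.31 to 2.10 in FVB IgG mice (median 0.41). Igfbp3 ran from -0.28 to 0.82 in PKCe FG-3149 mice (median 0.083), -0.36 to 0.40 in PKCe IgG mice (median 0.050), -0.84 to 0.78 in FVB FG-3149 mice (median -0.27) and -0.85 to 2.10 in FVB IgG mice (median 0.26). For both genes the single highest array was an FVB IgG array and the FVB FG-3149 group was the lowest by its mean.

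With the antibody Igfbp5 fell in FVB mice by 0.93 ± 0.19 (1.90-fold, adjusted p = 0.000904 by limma), with 12 of 12 arrays below the FVB IgG median. Igfbp3 was lower by 0.64 ± 0.18 (1.55-fold, adjusted p = 0.0227), with 11 of 12 arrays below, and Igfbp6 by 0.59 ± 0.20 (1.51-fold, adjusted p = 0.0491), with 10 of 12. In PKCe mice the antibody differences were -0.066 ± 0.18 for Igfbp5 and 0.11 ± 0.18 for Igfbp3, neither called. Tests of the difference between the lines gave 0.86 ± 0.26 for Igfbp5 (adjusted p = 0.0502) and 0.75 ± 0.26 for Igfbp3 (adjusted p = 0.0984). Thus 0 of 10 members were called there by limma, where 3.86% of all genes were. In the same test 3 members (with Igf1r) had an unadjusted p under 0.05, as did 2008 of all 12394 genes.

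Markers of several tissues and cell types also differed between the FVB groups. Of the 3 atrial markers 3 were called lower in FVB FG-3149 than in FVB IgG mice, as were 4 of 6 adipocyte markers and 1 of 4 epicardial and mesothelial markers. The atrial level ran from -2.97 to 4.404 on FVB FG-3149 and from -1.16 to 8.47 on FVB IgG arrays, and the adipocyte marker mean from -1.02 to 1.29 and from -0.87 to 3.26. The epicardial marker mean ran from -0.81 to 0.81 on FVB FG-3149 and from -0.54 to 2.99 on FVB IgG arrays. Of 8 macrophage markers 2 were lower with the antibody (Cd163 and Csf1r, list median -0.25), with means within the ranges given above. Of 8 mural markers 3 were higher and 2 lower, and of 8 endothelial markers 0 and 1. Among all genes 4.43% were called higher and 4.57% lower. On the 5 FVB IgG arrays with an atrial level above 4, which were all female, Igfbp5 ran from 0.60 to 2.10, against -0.31 to 0.22 on the other 5. Such a separation, of arrays that were divided by a marker level seen in the data, was shown by 3.27% of all genes. Igfbp3 ran from 0.29 to 2.10 on those 5 and from -0.85 to 0.24 on the others, and Igfbp6 from -0.27 to 1.44 and from -1.28 to -0.51.

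Without the 10 arrays with an atrial level above 4, the FVB antibody difference was -0.30 ± 0.097 for Igfbp5 (adjusted p = 0.111 by limma), -0.13 ± 0.15 for Igfbp3 (adjusted p = 0.853) and 0.024 ± 0.15 for Igfbp6 (adjusted p = 0.989), and 0 of 10 members were called, where 1.75% of all genes were. With the atrial level as a covariate, chosen after the data were seen, they were -0.45, -0.29 and -0.26, and 0 members were called where 2.15% of all genes were. Between the lines under IgG, leaving out those arrays raised the differences of Igfbp6 to 1.29 ± 0.16 and of Igfbp4 to 1.07 ± 0.21, both called, and put Igfbp5 at 0.12 ± 0.10, against -0.43 ± 0.19 with all arrays (neither called). What the part of admixed tissue in these differences was, beyond these values, was not tested.

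**Figure D3:**
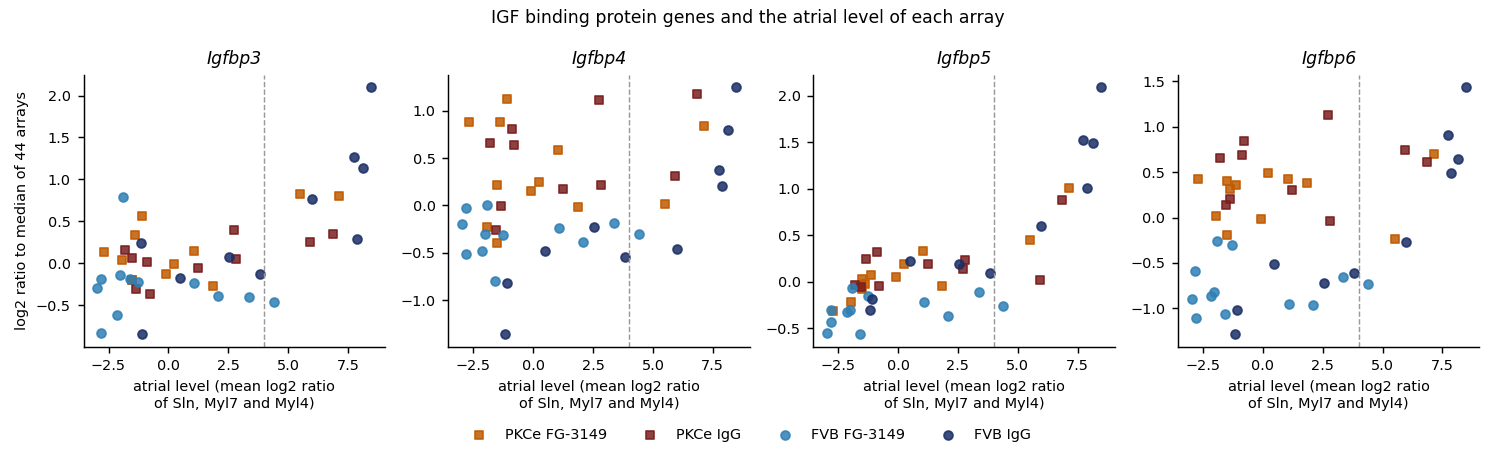
Log2 ratio of Igfbp3, Igfbp4, Igfbp5 and Igfbp6 (vertical axes) against the atrial level (horizontal axes, mean log2 ratio of the genes Sln, Myl7 and Myl4), 1 symbol per array in the colour of its group, with a dashed line at 4. The 5 FVB IgG arrays right of the line hold the highest Igfbp5 value of the series (2.10), and the other 5 lie at 0.22 or below for Igfbp5.

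**Figure D4:**
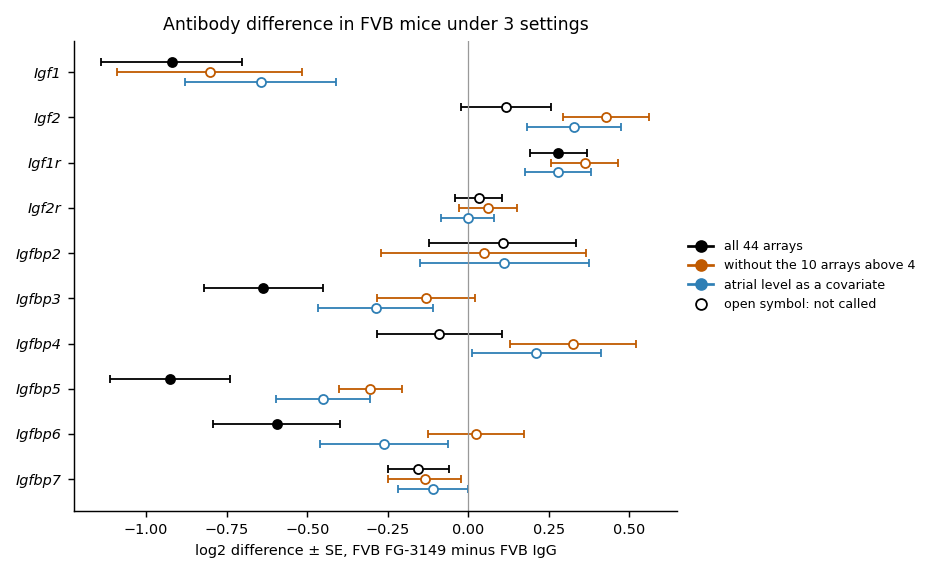
FVB FG-3149 minus FVB IgG difference (log2, bars of 1 SE, filled where the adjusted p was under 0.05) of the 10 members with all 44 arrays, without the 10 arrays with a high atrial level and with the atrial level as a covariate. Igfbp5 stands at -0.93, -0.30 and -0.45 and Igf1 at -0.92, -0.80 and -0.64 in these settings, and no member is called in the last 2.

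Leaving out 1 array left the Igf1 and Igfbp5 calls of the FVB antibody comparison in place in 44 of 44 runs and that of Igfbp3 in 41, which was lost without FVB IgG replicate 1, 2 or 3 (adjusted p up to 0.0601). The Igfbp6 call stood in 13 runs, with adjusted p from 0.00585 to 0.136. It was kept without FVB IgG replicates 5, 6, 8, 9 and 10, FVB FG-3149 replicates 4, 5, 8, 9 and 10, PKCe IgG replicates 2 and 9, or PKCe FG-3149 replicate 7, and lost without any other array. Without FVB FG-3149 replicate 11, the array whose sex label was in doubt, the Igfbp6 difference was -0.56 (adjusted p = 0.0877). The Igfbp5 difference between the lines' antibody effects was called in 9 runs (without PKCe FG-3149 replicate 1 or 2, PKCe IgG replicate 6, FVB FG-3149 replicate 9 or FVB IgG replicate 5, 6, 7, 8 or 10), and that of Igfbp3 without FVB IgG replicate 6 (adjusted p = 0.0349). The other Igfbp5 probe set differed by 0.0098 with the antibody in FVB mice and was not called.

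Under the antibody Igfbp3 and Igfbp5 were called higher in PKCe than in FVB mice, by 0.44 ± 0.17 (1.35-fold, adjusted p = 0.0369 by limma) and 0.43 ± 0.17 (1.34-fold, adjusted p = 0.0426). The Igfbp3 call was lost in 10 runs (without PKCe FG-3149 replicate 3, 7, 9 or 11 or FVB FG-3149 replicate 1, 6, 7, 10, 11 or 12) and the Igfbp5 call in 11 (without PKCe FG-3149 replicate 7, 9, 10, 11 or 12 or the same FVB FG-3149 replicates), with adjusted p up to 0.0625 and 0.0897. With the Gapdh difference as a covariate neither was called (0.44 for Igfbp3, adjusted p = 0.0557 by limma, and 0.37 for Igfbp5, adjusted p = 0.102). The other Igfbp5 probe set pointed the other way there (-0.20 ± 0.10, not called) and was called lower under IgG (-0.37 ± 0.11). Under IgG the differences were -0.43 ± 0.19 for Igfbp5 (adjusted p = 0.065) and -0.31 ± 0.19 for Igfbp3 (adjusted p = 0.182), and Igfbp5 became a call without PKCe IgG replicate 6 or FVB IgG replicate 5, 6 or 10 (adjusted p as low as 0.0159).

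Igfbp2 encodes a binding protein of fetal and metabolic tissues. It ran from -0.18 to 0.088 in PKCe FG-3149 mice (median -0.085), -0.26 to 3.41 in PKCe IgG mice (median -0.16), -0.11 to 0.45 in FVB FG-3149 mice (median 0.080) and -0.19 to 0.19 in FVB IgG mice (median 0.084). The value of 3.41 belonged to PKCe IgG replicate 9, whose Sftpc and Scgb1a1 stood at 9.32 and 10.1, and the next PKCe IgG array was at 0.16. No comparison of groups was called for Igfbp2 with all arrays. Without replicate 9 it was lower in PKCe IgG than in FVB IgG mice by 0.16 (adjusted p = 0.0459 by limma), and without it or without both arrays high in lung genes it was lower in PKCe FG-3149 than in FVB FG-3149 mice, by 0.19 in the second case. Without both of those arrays the PKCe IgG minus FVB IgG difference was -0.14 (adjusted p = 0.0957) and was not called.

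**Figure D5:**
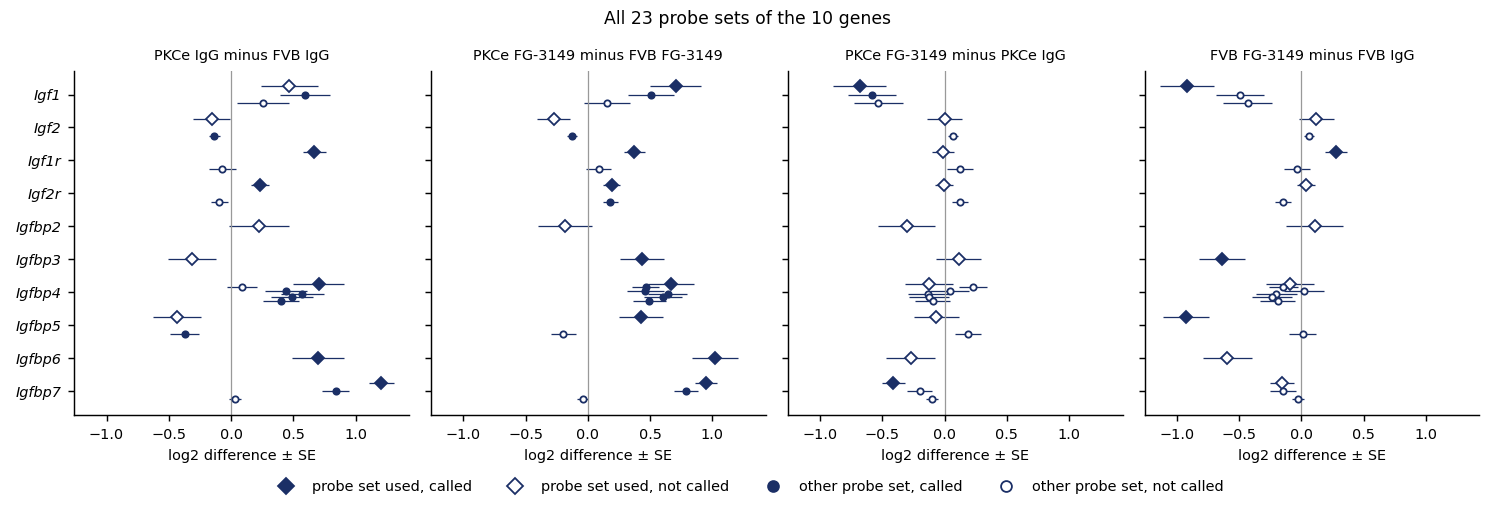
Log2 difference (horizontal axis) of all 23 probe sets of the 10 members in the 4 comparisons of groups, with diamonds for the probe set used for its gene and filled symbols where the adjusted p over all probe sets was under 0.05. The 6 Igfbp4 probe sets lie together right of 0 between the lines, whereas the 3 of Igfbp7 are spread from 0.034 to 1.21 between PKCe IgG and FVB IgG mice. The Igfbp6 difference with the antibody in FVB mice is open here because more tests were adjusted for.

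Averaged over groups, 4 of 10 members were higher in females than in males and 0 lower, where 8.67% of all genes were called higher and 7.12% lower. These were Igf1r by 0.38 ± 0.063 (1.30-fold, adjusted p = 5.84e-05 by limma), Igfbp7 by 0.32 ± 0.067 (adjusted p = 0.001), Igfbp3 by 0.53 ± 0.13 (adjusted p = 0.00456) and Igfbp4 by 0.47 ± 0.14 (adjusted p = 0.0162). Igfbp6 differed by 0.39 ± 0.14 (adjusted p = 0.0524) and became a call in 13 of 44 runs without 1 array, that without FVB FG-3149 replicate 11 among them. The members' median was 0.29, against -0.018 over all genes. Igf1 (-0.14 ± 0.16), Igf2 and Igf2r were not called.

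Other cell types' markers differed between the sexes too: 5 of 9 fibroblast, 5 of 8 macrophage and 3 of 6 adipocyte markers were higher in females. Of 8 mural markers 0 were higher and 2 lower in females, and of 8 endothelial markers 1 and 2. Among all genes 8.67% were called higher and 7.12% lower. The fibroblast marker mean ran from -1.11 to 1.52 on female arrays (median 0.14, n = 24) and from -1.08 to 0.75 on male arrays (median -0.057, n = 20). With that mean as a covariate 2 members were called, Igf1r (0.31) higher and Igf1 (-0.70) lower in females, where 2.19% of all genes were called, and Igfbp4 stood at -0.11. Without the 10 arrays high in atrial genes, 5 of which were FVB IgG females, Igfbp3 differed by 0.33 (adjusted p = 0.0291 by limma) and Igfbp4 by 0.34 (adjusted p = 0.0849).

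The line difference under IgG did not differ between the sexes by a call for any of the 10 members, where 0.0807% of all genes were called. An unadjusted p under 0.05 by limma was found for 3 members (Igf1 0.996, Igfbp3 -1.01 and Igfbp7 0.43, females minus males), and for 1066 of all 12394 genes. Igfbp7 was 1.39 higher in PKCe IgG than in FVB IgG females and 0.96 higher in males, both called. For the antibody difference in PKCe mice, 0 members were called between the sexes, where 0.0161% of all genes were. There 0 members had an unadjusted p under 0.05 by limma, as did 991 of all 12394 genes. Within the sexes Igf1 differed with the antibody by -0.93 in PKCe females (adjusted p = 0.0421 by limma) and -0.44 in PKCe males (adjusted p = 0.613), and Igfbp7 by -0.57 (adjusted p = 0.0137) and -0.26 (adjusted p = 0.463). Among females 6.52% of all genes were called in this comparison and among males 0.46%. Both arrays high in lung genes were from PKCe IgG females.

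Genes that work beside the members were counted from lists drawn up for the axis, with the same call rule. For all the lists below, the shares of all genes called are these. Between the lines 21.5% were higher and 25.5% lower in PKCe mice under the antibody, and 20.7% and 21.5% under IgG. With the antibody 5.08% were higher and 3.74% lower in PKCe mice, and 4.43% and 4.57% in FVB mice. Of 12 measured IGF carriers and binding protein proteases, 2 were higher and 0 lower in PKCe than in FVB mice under the antibody, namely Mmp2 (1.28) and Htra3 (0.56), secreted proteases. Under IgG 3 were higher and 1 lower, with Mmp2 at 1.16, Htra3 at 0.37, the lysosomal protease Ctsd at 0.27 and the metalloprotease Adamts1 at -0.52. The list medians were -0.096 and -0.021, near those of all genes. With the antibody Ctsd alone was called in PKCe mice, lower by 0.19, and 0 of 12 in FVB mice.

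Of 15 adaptors of the insulin and IGF receptors, 3 were higher and 6 lower in PKCe than in FVB mice under the antibody, and 3 higher and 4 lower under IgG. The shares of all genes were 21.5% and 25.5% under the antibody, and 20.7% and 21.5% under IgG. Grb14, an adaptor that inhibits these receptors, was lower by 0.51 and 0.79 in those comparisons, Gab1, a docking protein, was lower by 0.38 and 0.30, and Shc1, which links receptors to Ras, was higher by 0.33 and 0.34. With the antibody in PKCe mice the phosphatase gene Ptpn11 was lower by 0.45 (adjusted p = 0.00147 by limma) and Grb14 was higher by 0.26 (adjusted p = 0.00973). In FVB mice 0 of 15 were called, and of these genes Ptpn11 differed between the antibody effects (-0.50, adjusted p = 0.0203).

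Of 21 genes of the PI3K, AKT and mTOR cascade, 4 were higher and 7 lower in PKCe than in FVB mice under the antibody. Under IgG 4 were higher and 5 lower, and the list medians were 0.034 under the antibody and -0.047 under IgG. Among all genes 21.5% were called higher and 25.5% lower under the antibody, and 20.7% and 21.5% under IgG. Pik3r1, the regulatory subunit of PI3K, was lower by 0.34 and 0.98 in those comparisons. With the antibody in PKCe mice 3 were higher and 0 lower: Pik3r1 by 0.42, the kinase gene Akt2 by 0.33 and the translation repressor gene Eif4ebp1 by 0.29. In FVB mice 2 were higher (Akt2 by 0.24 and Pik3cd by 0.32) and 1 lower (Rps6 by 0.21), and the antibody effect on Pik3r1 differed between the lines by 0.64 (adjusted p = 0.00535 by limma).

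Among 19 FOXO factors and targets, which AKT restrains, 1 was higher and 3 lower in PKCe than in FVB mice under the antibody, and 2 were higher and 7 lower under IgG. The transcription factor gene Klf15 was lower by 0.52 and 0.97 and the cell cycle inhibitor gene Cdkn1b by 0.51 and 0.61. With the antibody in PKCe mice Klf15 (0.56), Ccng2 (0.49) and the autophagy gene Map1lc3b (0.25) were higher, and in FVB mice Sod2 (0.31) and Gabarapl1 (0.22) were. The list medians for the antibody were 0.13 in PKCe and 0.079 in FVB mice, against 0.016 and 0.025 over all genes.

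Of 10 genes of the growth hormone axis, which drives Igf1 in liver, 2 were higher and 3 lower in PKCe than in FVB mice under either treatment. The shares of all genes called higher and lower were 21.5% and 25.5% under the antibody, and 20.7% and 21.5% under IgG. Socs2, a feedback inhibitor of growth hormone signalling, was higher by 0.80 under the antibody and 0.57 under IgG, while Ghr, the growth hormone receptor, was lower by 0.22 and 0.25. With the antibody in PKCe mice Ghr was higher by 0.24 and Jak2, its kinase, by 0.31, and in FVB mice Socs2 was lower by 0.45 (adjusted p = 0.0112 by limma). Igf1 itself was lower in both of those antibody comparisons, as given above.

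Of 14 measured imprinted genes linked to Igf2 and Igf2r, 8 were higher and 1 lower in PKCe than in FVB mice under the antibody (median 0.22), and 5 higher and 0 lower under IgG (median 0.11). Dcn (0.41 and 0.39), Slc38a4 (0.62 and 0.41) and Ndn (0.46 and 0.55) were among them, and Dcn also stands in the fibroblast list. With the antibody 0 of 14 were called in PKCe mice, and in FVB mice the noncoding RNA Meg3 was lower by 0.68 and Peg3 by 0.59. Of 8 measured cargoes and partners of mannose 6-phosphate sorting, M6pr, the second receptor of that route, was higher in FVB mice with the antibody by 0.39 (adjusted p = 0.000448 by limma), and Ctsd alone was called in PKCe mice.

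Of 12 other genes whose proteins share the IGFBP domain, 4 were higher and 0 lower in PKCe than in FVB mice under the antibody, and 4 higher and 4 lower under IgG. Ccn5, a CCN family member, was higher by 1.49 and 1.38, and Ccn2, which encodes the target of FG-3149, by 0.91 and 0.74. The endothelial proteoglycan gene Esm1 was higher by 0.39 and 0.81, and Ccn3 was lower under IgG by 1.25. With the antibody 0 of 12 were called in PKCe mice, and in FVB mice Ccn4 (by 0.88), Ccn3 (by 0.78) and Kazald1 (by 0.48) were lower. The antibody effect on Ccn3 differed between the lines by 1.23 (adjusted p = 0.0218 by limma).

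Likeness between genes was measured as Pearson's r over the 44 arrays after the mean of each array's group and sex was taken away, as a description of arrays that share tissue make-up. Igf1 was most like Spon1 (0.86), Rnase4 (0.82) and the macrophage receptor gene Mrc1 (0.78), and over the 34 arrays without a high atrial level these were 0.84, 0.83 and 0.76. Igfbp6 was most like the complement genes C1ra (0.92) and Serping1 (0.92), and Igfbp4 like Gpx3 (0.91), with 0.85, 0.82 and 0.74 over the 34 arrays. Igfbp5 was most like Golm1 (0.94) and Rab33a (0.90), but over the 34 arrays r was 0.65 and -0.016. Igfbp3 was most like Mpzl2 (0.86) and Vwf (0.84), Igfbp7 like Stt3a (0.76) and Col16a1 (0.75), Igf2 like Plagl1 (0.80) and Igf2r like Ubxn6 (0.78). Over the 34 arrays these were 0.73, 0.68, 0.71, 0.62, 0.58 and 0.76, in that order. Igfbp2 was most like the surfactant gene Sftpa1 (0.97, and 0.36 over the 43 arrays without PKCe IgG replicate 9, left out after the data were seen), and no gene reached 0.7 for Igf1r.

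Among the members themselves, Igfbp4 and Igfbp6 were the most alike pair (r = 0.84, and 0.59 over the 34 arrays), which are shown above with their start regions. Igfbp5 and Igfbp6 followed (0.75 and 0.60), then Igfbp4 and Igfbp5 (0.74 and 0.57), Igfbp3 and Igfbp5 (0.73 and 0.36) and Igf2 and Igfbp4 (0.73 and 0.51). All of these were lower without the arrays of high atrial level.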

How the data were processed

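RNA of the left ventricle of 44 mice was hybridised to Affymetrix 430A 2.0 arrays from 250 ng each. Per the submitters' processing notes and design text, the authors used GCRMA (version not given) and GeneSpring GX 7.3.1, and the deposited values are linear ratios to each probe set's median. Each of the 22690 probe sets has its median within 0.001 of 1, array medians ran from 0.954 to 1.032, and 25 values stood at the lowest ratio, 0.01. Brightness and detection are not in these values, so how far a gene stood above background cannot be told, and precision is limited by how many arrays there are. The build behind the array annotation is not given in the sources used here, and the coordinates printed are those of RefSeq's start windows.

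Log2 of each ratio was taken, and each gene was represented by the probe set of largest SD over the arrays (12394 genes from 20393 probe sets with 1 gene; 691 had several genes and 1606 none). A single limma fit (limma 3.58.1, R 4.3.3) held group and sex as terms, and sex interactions in a fit of the means of group and sex. Benjamini-Hochberg adjustment ran over all genes, or over all 22690 probe sets where probe sets are compared. The fit was tested on simulated data.

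The members and companion lists were chosen with earlier results of these data known. All members are named in each comparison. Of each companion list up to 4 called genes with the lowest p were eligible to be named, and of like genes the top 3 with r of at least 0.7. The alternatives tried were other scalings, filters, probe set rules, covariates and subsets of arrays. Covariates for the atrial level and the fibroblast marker mean were added after the data were seen.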

Additional observations from a re-analysis of the deposited data

Results flagged for a closer look

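In 20 groups of 10 arrays (10 members in each IgG group), the highest and the lowest array were set against the rest by Dixon's criterion, which marks about 1 in 20 groups by chance. Igfbp2 was marked in PKCe IgG mice: replicate 9 stood at 3.41, far from the next array at 0.16 (gap over range 0.88). That array's Sftpc and Scgb1a1, genes of lung epithelium, were at 9.32 and 10.1. Igfbp5 was marked in the same group: replicate 6 stood at 0.88, with the next array at 0.32 (gap over range 0.60). The atrial level of that array was 6.86. The part of either set of genes in these values was not tested.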

How the results depend on the processing

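Of the 24 member differences called, 438 values were computed under 19 alternatives apart from leaving out single arrays: 357 kept their direction and call, 72 kept the direction without a call and 9 turned round. Those of Igfbp7 between the lines were called under each alternative run, except under the antibody with the fibroblast covariate (0.35, adjusted p = 0.119 by limma). The antibody comparison in PKCe mice, with 2 members called, had 1 called at a threshold of 0.01, with the replicate block, with quantile normalisation, without the 10 arrays of high atrial level and without the 2 of high lung genes, and 0 among males, with the Gapdh covariate and with the fibroblast covariate. With all arrays 5.08% of all genes were called higher and 3.74% lower. The share called in either direction was 6.39% with the replicate block, 4.26% without the 10 arrays and 3.55% without the 2. It was 0.46% among males, 3.87% with the Gapdh covariate and 4.28% with the fibroblast covariate. The antibody comparison in FVB mice, with 5 called, had 2 at the threshold of 0.01, with quantile normalisation, among females and with the fibroblast covariate, 3 with arrays centred on their median, with averaged probe sets and with only the compared groups, 1 among males, and 0 without the 10 arrays and with the atrial covariate. Here the share of all genes was 3.28% among females, 7.14% with the fibroblast covariate, 8.08% with averaged probe sets and 0.46% among males. It was 1.75% without the 10 arrays and 2.15% with the atrial covariate. PKCe FG-3149 against FVB FG-3149 mice, with 8 called, had 5 at the threshold of 0.01, among females and with the Gapdh covariate, 4 among males and 2 with the fibroblast covariate, Igf2 (-0.77) and Igfbp4 (-0.95), both lower. There 0 of the 8 higher calls stood, but the marker means of these groups did not overlap, so that fit can hardly tell line from markers. Of all genes 33.9% were called among females, 41.4% with the Gapdh covariate, 22.8% among males and 7.2% with the fibroblast covariate. PKCe IgG against FVB IgG mice, with 5 called, had 4 among females, among males, with the Gapdh covariate and with the fibroblast covariate, where Igfbp7 was higher and Igf1, Igfbp4 and Igfbp5 lower. In these settings 36.8%, 17.5%, 31.3% and 10.2% of all genes were called, in that order. Among females Igf1 was called there and Igf2r and Igfbp6 were not. The difference of antibody effects, with 0 called, had 1 with no sex term, quantile normalisation, averaged probe sets, all probe sets, genes of larger SD, array weights, the Gapdh covariate and the fibroblast covariate. For that difference 3.86% of all genes were called with averaged probe sets, 5.85% with the Gapdh covariate and 5.4% with the fibroblast covariate. Female against male mice, with 4 called, had 2 with the fibroblast covariate, where 2.19% of all genes were called. The sex difference of the line effect, with 0 called, had 1 without the 10 arrays. The cause of these changes was not tested.

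With the fibroblast covariate, chosen after the data were seen, Igfbp4 (-0.97) and Igfbp6 (-0.77) turned round between PKCe IgG and FVB IgG mice, as did Igf1 (-0.85), Igfbp3 (-0.20), Igfbp4 (-0.95), Igfbp5 (-0.32) and Igfbp6 (-0.40) between PKCe FG-3149 and FVB FG-3149 mice and Igfbp4 (-0.11) between the sexes. Between the lines that covariate nearly stood in for the line, as given above, so those turns do not test the line differences. Igfbp6 turned to 0.024 in the FVB antibody comparison without the 10 arrays. Leaving out 1 array gave 5 to 6 called members for PKCe IgG against FVB IgG mice, 6 to 9 for PKCe FG-3149 against FVB FG-3149 mice, 1 to 2 for the antibody in PKCe mice, 2 to 5 for the antibody in FVB mice, 0 to 2 for the difference of antibody effects and 4 to 5 for the sexes.

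Replicate numbers are shared between groups, but 62 pairs of arrays with the same number had a mean correlation of -0.025 (from -0.26 to 0.23), with 7 above 0.1, against 0.0022 for other pairs, so the samples share only a number. The replicate block moved the Igf1 difference with the antibody in PKCe mice to -0.64 (adjusted p = 0.0505 by limma) that of Igfbp6 in FVB mice to -0.57 (adjusted p = 0.0951) and that of Igfbp5 between PKCe FG-3149 and FVB FG-3149 mice to 0.43 (adjusted p = 0.0521), so that these calls were lost; no other called member difference lost its call.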

Other observations

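Both ligand loci have antisense transcripts with probe sets of their own. Igf1os differed by -0.098 between PKCe FG-3149 and FVB FG-3149 mice (adjusted p = 0.0607 by limma) and was lower in PKCe IgG than in FVB IgG mice by 0.15 ± 0.048 (adjusted p = 0.0118), where Igf1 differed by 0.47 without a call. Igf2os was lower in PKCe FG-3149 than in FVB FG-3149 mice by 0.31 ± 0.072, which was called, and higher in FVB FG-3149 than in FVB IgG mice by 0.27 ± 0.076 (adjusted p = 0.0193). Neither was called with the antibody in PKCe mice (0.055 for Igf1os and 0.077 for Igf2os).

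Between the sexes, genes beside the axis differed as well. Stc2, whose product inhibits the protease PAPP-A, was lower in females than in males by 0.56 ± 0.12 (adjusted p = 0.00093 by limma). Socs2 was higher in females by 0.46 ± 0.083 (adjusted p = 0.000178), Irs1, a docking protein of the IGF1 receptor, by 0.26 ± 0.056 (adjusted p = 0.00154), and Ccn4 by 1.19 ± 0.17 (adjusted p = 5.04e-06). Grb14 was lower in females by 0.26 ± 0.048 (adjusted p = 0.000302), and the FOXO target Gadd45a by 0.43 ± 0.075 (adjusted p = 9.07e-05).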
